A study of Mus musculus with 12 samples.

Results

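The small (40S) ribosomal subunit is built from ribosomal RNA and a set of proteins, most of them encoded by genes named Rps. The genes described here were all rows whose symbol was Rps followed by a number, with or without an a, together with Rps3a1, Rps4x and Rpsa. This rule, which used no measured value, took 31 of 15803 transcripts. Footprint and RNA-seq libraries were made from KPC cells, a mouse line of pancreatic ductal adenocarcinoma (PDAC) from a mouse model driven by Pdx1-Cre, which acts in the pancreas. Controls are labelled as untreated and were given PBS according to the methods, and treated cells received 20 μM Cis (cisplatin, a platinum drug that crosslinks DNA) for 6 or 21 h, and all groups were lysed in cycloheximide. Each assay had 2 libraries per group, 12 in all. The same PBS libraries were the control for both times, and how long PBS was applied is not labelled.

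During translation the small subunit binds the mRNA, scans to the start codon and checks each codon against its tRNA. Messenger RNAs of ribosomal proteins share a 5′ end that begins with a cytosine and a run of pyrimidines (the terminal oligopyrimidine or TOP element), and their translation is known to follow mTOR signalling through 4E-BP and LARP1. Cells therefore usually adjust the output of these genes together, and an excess of a single protein is degraded when it finds no place in a subunit.

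The element is shown for members whose RefSeq promoter (build GRCm38.p6) starts with it. Of 31 members, 23 had a promoter in the RefSeq table, in 27 windows. In each line the first 10 bases lie before the annotated start of the gene, and the capitals mark the run of C and T that begins at the start.
Rps6, chr4:86857348-86857377, minus strand: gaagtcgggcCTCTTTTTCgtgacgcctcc
Rps15a, chr7:118116128-118116157, minus strand: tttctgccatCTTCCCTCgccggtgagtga
Rps18, chr17:33955646-33955675, minus strand: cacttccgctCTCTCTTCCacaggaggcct
Rps21, chr2:180257369-180257398, plus strand: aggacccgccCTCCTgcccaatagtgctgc
Rps10, chr17:27635225-27635254, minus strand: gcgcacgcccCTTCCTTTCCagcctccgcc
Rps27, chr3:90213629-90213658, minus strand: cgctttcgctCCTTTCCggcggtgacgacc
The annotated start was a C followed by at least 4 pyrimidines on the sense strand in 6 of the 27 windows (22.2%), against 2.51% of all 32851 promoter windows. With the same motif allowed to begin up to 20 bases from the annotated start on either side, it was found in 74.1% of the members' windows and 49.4% of all windows. The large subunit genes (Rpl) had 16.3% at the start. These matches describe the annotation, and the start sites that KPC cells use were not measured here. The deposited values were made on GRCm39, so these coordinates were not joined to them.

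Footprints and RNA were measured for every gene. Footprints, the 25 to 35 nucleotide RNA fragments that ribosomes protect from RNase I, are given as RPKM, reads scaled by the coding length and the library total, and RNA as RPKM over the whole representative transcript. Their ratio is the translation efficiency (TE). Footprint libraries held 3375480 to 5204127 reads and RNA-seq libraries 1985344 to 2901692, of which 3 transcripts (Lars2, Mettl26 and Tmem38b) took 51.8 to 56.6%. The 29 members with footprints had 373 to 15292 footprint reads and 151 to 4254 RNA reads per library, 2.94 to 3.34% of all footprint reads. All 7 markers of ductal epithelium had footprints, at a summed 6728 to 9794 RPKM (lowest at 21 h, 6728 to 6861), whereas 7 fibroblast markers summed to at most 9.72 RPKM, 6 immune markers to at most 6.14 and 3 endothelial markers to at most 0.666. Whether a moving epithelial level has a part in the results was not tested. Changes are log2 differences of scaled RPKM plus 0.5, with standard errors (SE) from limma, which understate the change of rare transcripts. A gene was called when its Benjamini-Hochberg adjusted p over all transcripts tested was under 0.05. RPKM is relative to the library, so a change of all transcripts alike cannot be seen, and in bulk samples fewer cells of a type and less RNA per cell cannot be told apart. The labels do not say whether the libraries of a group came from separate cultures, so the p-values measure only the spread between these libraries, and an exact two-sided permutation test of 2 against 2 cannot go below p = 0.333.

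With PBS, 29 of the 31 members had footprints, and their level spanned a 38.5-fold range although a ribosome holds a single copy of each protein. The highest footprint levels were those of Rps28, a small protein of the subunit's head (10236 ± 985 RPKM, SD, n = 2), Rps14 (5499 ± 336), which lines the platform, and Rps15a (4168 ± 520.4), a core protein of the body. The lowest were Rps23 (266 ± 1.65 RPKM), a protein of the decoding centre, Rps18 (363 ± 23.8), which contacts the large subunit, and Rps19 (591 ± 20.2), a head protein mutated in Diamond-Blackfan anaemia. The other 23 lay between these, and the median over the 29 was 1636 RPKM. These are abundant messages. Of all transcripts with footprints, the 100 with the highest level included 12 members and the first 300 included 26.

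Rps10 and Rps27 were listed at 0 footprints in all 6 libraries. They had 1 to 17 and 0 to 1 RNA reads per library, so that Rps10 could be tested for RNA alone and Rps27 not at all. Both encode core 40S proteins that growing cells need, so a listing at 0 is not a measure of their translation. Rps27rt, a near copy of Rps27, was also listed at 0 footprints and had 35 to 80 RNA reads, whereas Rps27l, a paralog outside the symbol rule, had 146 to 240 footprint reads per library. Ribosomal protein genes have many near copies in the genome, and how reads that match several places were counted is not given in the sources used here, which leaves the absolute level of each member uncertain.

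RNA levels in PBS cells spanned 20.0-fold among the same 29 genes, with a median of 563 RPKM. Rps2, which sits where mRNA enters the subunit (1533 ± 13 RPKM, SD, n = 2) was highest, followed by Rps14 at 1187 ± 20.0. Rps12 was also among the high members, at 1162 ± 18.4, a gap to Rps14 slightly larger than the SD of either. Rps23 (76.5 ± 4.64), Rps20 (108 ± 9.13) and Rps15a (126 ± 2.49) were lowest of the 29. Across the 29 genes, which are not replicates, log2 footprints and log2 RNA had a Pearson correlation of 0.41 (Spearman 0.33). The spread of footprint levels over the members (SD of log2 RPKM) was 1.18 with PBS, 1.32 at 6 h and 1.17 at 21 h, and that of RNA 1.12, 1.12 and 1.13.

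Footprints per RNA in PBS cells ran from 0.572 ± 0.0387 for Rps2, 0.612 ± 0.0864 for Rps12 and 1.32 ± 0.0254 for Rpsa to 10.5 ± 1.70 for Rps20, 12.0 ± 0.897 for Rps28 and 33.1 ± 4.78 for Rps15a (SD, n = 2), with a median of 2.94. Rps12 is a head protein, Rpsa, also known as the laminin receptor, lies on the solvent side of the subunit, and Rps20 lies in the head near the mRNA entry. Each ratio divides a footprint library by the RNA-seq library of the same number. Deviations of libraries with the same number were not correlated, as given below, which does not show whether they came from the same lysate. The SD of a ratio depends on this match. The main TE test did not use the match. The ratio also depended on the transcript the authors chose to represent a gene. That of Rps15a is 5179 bases long and that of Rps20 3706, against 962 for Rps2 and 460 for Rps12, and over the 29 genes log2 ratio and log2 transcript length had a Pearson correlation of 0.55 (Spearman 0.42). The order of the ratios between genes therefore shares its transcript length with the RNA RPKM, while changes between groups within a gene do not.

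**Figure D1:**
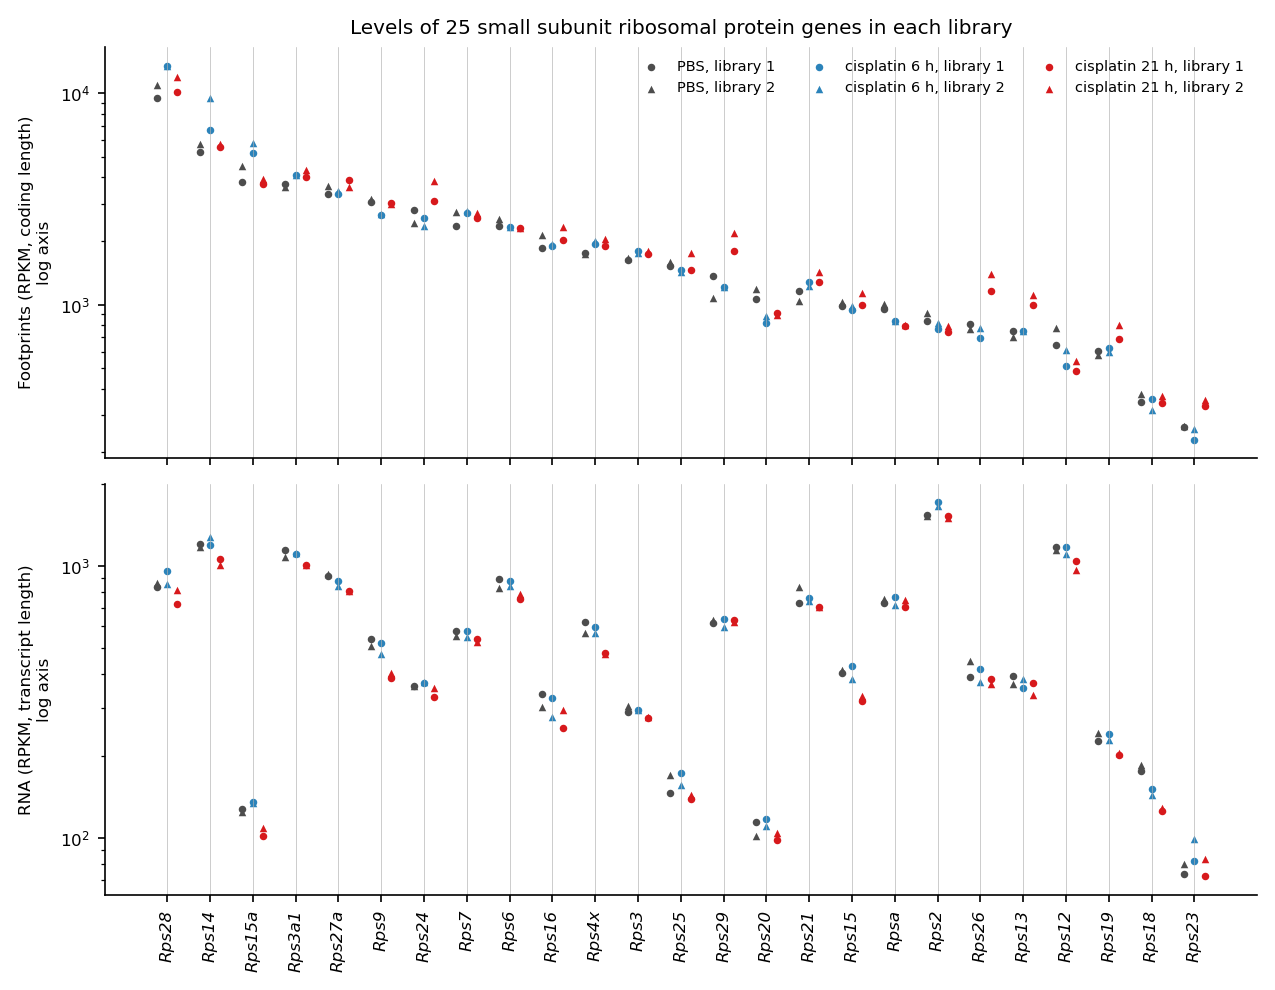
RPKM on log axes of 25 small subunit genes with footprints, for footprints (upper, per coding length) and RNA (lower, per transcript length), with 1 point per library (circles, library 1, and triangles, library 2) and genes ordered by mean footprints with PBS. Footprints run from Rps28 down to Rps23 while the RNA order differs, and most RNA points at 21 h (red) lie below those with PBS (grey).

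At 6 h of Cis, no member was called. For footprints this was 0 of 29 (limma), where 2.04% of 10383 transcripts were called in either direction. An unadjusted p under 0.05 was seen in 8 of the 29 members and in 2217 of the 10383 transcripts. The median change was -0.05 on the log2 scale, against -0.01 over all transcripts tested. Among the 9 members with both 6 h libraries above both PBS libraries, on the scaled values, were the abundant Rps14, Rps15a and Rps28, and among the 10 with both below were Rps20, Rps12 and Rpsa. These counts were near those over all transcripts tested, of which 25.7% had both 6 h libraries above and 28.6% both below. The half-width of the 95% confidence interval, without adjustment, was 0.20 on the log2 scale for footprints and 0.16 for RNA (median over members). Smaller changes of a single gene were not detectable. The footprint intervals of 8 members excluded 0 without a call, beside the 2217 of 10383 transcripts with an unadjusted p under 0.05.

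Rps14 footprints were 5262 and 5737 RPKM with PBS, 6717 and 9459 at 6 h and 5576 and 5773 at 21 h, so both 6 h libraries lay above all the others and also differed from each other. The change at 6 h was 0.52 (SE 0.14, limma adjusted p = 0.0952). Rps15a footprints were 3800.2 and 4536 RPKM with PBS, 5202 and 5823 at 6 h and 3733 and 3941 at 21 h. Its 6 h libraries were again the highest, a change of 0.39 (SE 0.11, limma adjusted p = 0.0952). Footprints of Rps28 were 9540.0 and 10932 RPKM with PBS, 13494 and 13462 at 6 h and 10144 and 11924 at 21 h, with a 6 h change of 0.39 (SE 0.11, limma adjusted p = 0.096). In each of these 3 genes both 6 h libraries lay above the other 4.

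Rps20 stood on the other side, with footprints at 1062 and 1185 RPKM with PBS, 817 and 888 at 6 h and 916 and 897 at 21 h and a 6 h change of -0.41 (SE 0.09, limma adjusted p = 0.0538), the smallest adjusted p of any member at this time. Rps12 changed by -0.35 (SE 0.12, limma adjusted p = 0.161) and Rpsa by -0.25 (SE 0.07, limma adjusted p = 0.113). None of these passed the threshold. With voom, the limma method for counts, run on reads recovered from the RPKM, 8 members were called, 4 higher, with Rps14, Rps15a and Rps28 among them, and 4 lower, which were Rps20, Rps12, Rpsa and Rps9, where voom called 12.3% of all transcripts. Voom differs from the test on RPKM in its input, log offset, normalization and variance weights, which were not tested one by one. Over the 29 members, the 6 h change and the log2 footprint level in the 21 h libraries, which are not part of that change, had a Pearson correlation of 0.63 (Spearman 0.58), as a description with no test. The 21 h change and the log2 footprint level in the 6 h libraries had -0.09 (Spearman -0.11).

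RNA of the members at 6 h was called in 0 of 30 (limma), where 0% of 9443 transcripts were called. An unadjusted p under 0.05 was seen in 5 members and in 1086 of the 9443 transcripts. Voom called 1 member higher, Rps2, and its share over all transcripts is not given here. The median was 0.06, with 25 of 30 above 0, but RPKM as deposited gave -0.01 with 12 above 0. Unscaled values also shift all transcripts together, as the RNA scaling factors were 0.997 and 1.018 with PBS and 0.959 and 0.963 at 6 h. No direction was set for RNA at 6 h. Rps2 was the member that voom called, with RNA at 1542 and 1524 RPKM with PBS, 1715 and 1664 at 6 h and 1528 and 1499.9 at 21 h and a 6 h change of 0.21 (SE 0.06, limma adjusted p = 0.281). TE was called in 0 of 29 members at 6 h (limma), where 0% of 9295 transcripts were called. An unadjusted p under 0.05 was seen in 7 members and in 710 of the 9295 transcripts. Voom called 1 member lower, Rps20, again without a share over all transcripts given here. The median TE change was -0.06 and turned to 0.02 with RPKM as deposited, into which the same RNA shift of all transcripts enters. Footprints per RNA of Rps20 were 9.31 and 11.7 with PBS, 6.96 and 8.02 at 6 h and 9.37 and 8.66 at 21 h, with both 6 h libraries below the rest and a change of -0.56 (SE 0.13, limma adjusted p = 0.253).

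At 21 h the RNA of the small subunit genes was lower. Of 30 members tested, 18 fell (60.0%) and 0 rose, where 12.2% of 9443 transcripts were called lower, and all 30 had changes below 0. The median was -0.26 on the log2 scale, against 0.02 over all transcripts tested. On scaled RPKM both 21 h libraries lay below both PBS libraries in 29 of 30 members, where this held for 30.6% of all transcripts tested. On RPKM as deposited it held for 24 of 30, with the other 6 overlapping. The share over all transcripts on deposited values is not given here, and the 30.6% does not apply to them. Reads on the members made up 3.43 and 3.36% of the RNA reads with PBS, 3.67 and 3.56% at 6 h and 2.98 and 2.92% at 21 h, once the 3 transcripts above were left out of the total.

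The largest RNA falls were seen in Rps10, Rps18 and Rps9. Rps10 had few reads (17 and 9 with PBS, 8 and 8 at 6 h, 5 and 1 at 21 h), and fell by 1.85 on the log2 scale (SE 0.49, limma adjusted p = 0.0241) at these low counts. The change was -1.04 without 21 h library 2 and -2.65 without 21 h library 1 of the RNA-seq, and the call was lost in 4 of 14 alternatives, among them no filter on low RPKM and either PBS library 1 or 21 h library 2 left out. Rps18, whose annotated start carries the TOP run shown above, had RNA at 176 and 186 RPKM with PBS, 151 and 143 at 6 h and 125 and 129 at 21 h. Its 21 h libraries lay below all the others, and RNA fell by 0.59 on the log2 scale (SE 0.08, limma adjusted p = 0.00102). In Rps9, a protein of the mRNA entry site, RNA was 538 and 506 RPKM with PBS, 521 and 476 at 6 h and 388 and 403 at 21 h and fell by 0.49 on the log2 scale (SE 0.07, limma adjusted p = 0.00179). In Rps18 and Rps9 the 21 h and PBS libraries did not overlap.

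Of the other members with a TOP run at the annotated start, Rps15a, Rps6 and Rps21 also fell in RNA, by 0.35, 0.24 and 0.23 on the log2 scale. Their calls were lost in 3, 7 and 10 of 14 alternatives, and all 30 members tested lay below 0 whether or not such a run was shown. Rps6, the protein phosphorylated by S6 kinase, had RNA at 892 and 831 RPKM with PBS, 882 and 843 at 6 h and 758 and 789.5 at 21 h. Rps12, Rps14, Rps15, Rps19, Rps27a (a fusion with ubiquitin), Rps28, Rps3a1 and Rps4x were also among the called genes. The 12 members not called ranged from -0.31 (Rps16) to -0.07 (Rps23), and of these Rps29 had RNA at 615 and 632 RPKM with PBS, 641 and 594 at 6 h and 632 and 624 at 21 h, where the groups overlap as deposited. By position in the subunit, 9 of 14 head proteins and 9 of 16 proteins of the body and platform were called lower, with medians of -0.29 and -0.23. By origin, this was 7 of 15 proteins with bacterial counterparts (median -0.27) and 11 of 15 without (median -0.25).

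These RNA calls depended on the scaling, on the variance model and on single libraries. Without the trend of variance with level in limma, only Rps18 was called. RPKM as deposited gave 10 lower and a median of -0.17, with 28 of 30 below 0. These unscaled values also shift all transcripts together, as the scaling factors were 0.997 and 1.018 with PBS and 1.042 and 1.095 at 21 h. Quantile normalization gave 5 lower and 1 higher (Rps29) and a median of -0.05, with 23 below 0. Without PBS library 1, PBS library 2 or 21 h library 2 of the RNA-seq, 7, 10 and 8 members were called, and Rps18 alone was called under every alternative.

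Footprints at 21 h went in both directions. At this time 7 of 29 members rose (24.1%) and 3 fell (10.3%), where 18.9% of 10383 transcripts were called higher and 20.2% lower, which is near the share of members in the upward direction. The median footprint change was 0.07, against 0.01 over all transcripts tested, and its sign rested on single libraries. Without PBS library 1 of the footprints the median was -0.04 with 11 of 29 members above 0, and without 21 h library 2 it was -0.01 with 13 above 0, against 20 above 0 in all libraries. With all libraries, 20 of the 29 members had RNA below 0 and footprints above 0, and 5 more had footprints that were lower by less than the RNA was. In Rps2, Rps12, Rps20 and Rpsa footprints were lower by more than RNA. Over the members, footprint and RNA changes at 21 h had a Pearson correlation of 0.21 (Spearman 0.19).

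**Figure D2:**
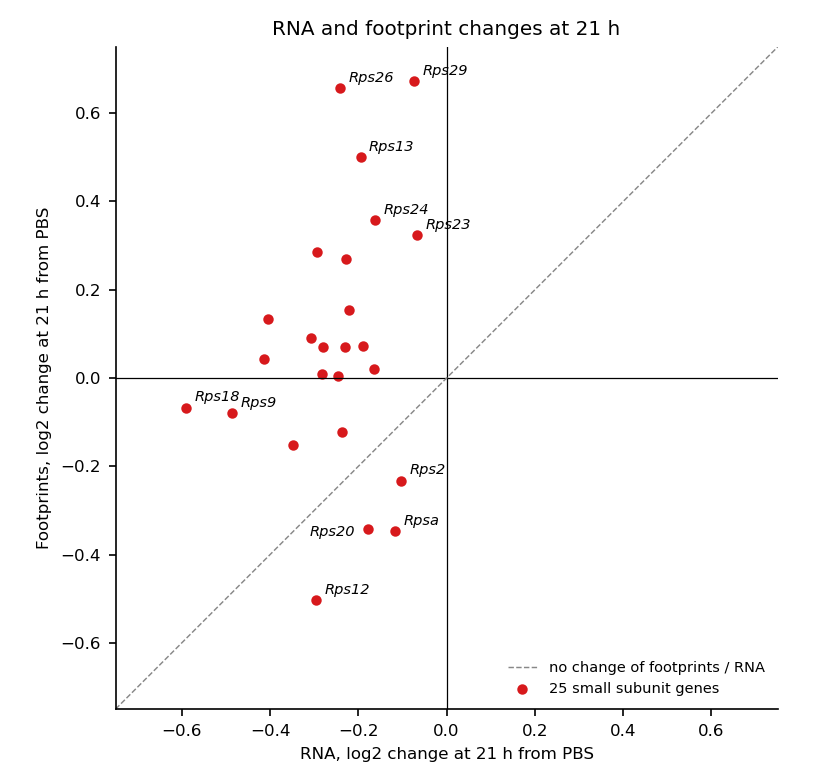
Log2 change at 21 h from PBS of RNA (x axis) and footprints (y axis) for 25 members tested in both, with 11 of them named and a dashed line where the ratio is unchanged. Every point lies left of 0 for RNA, 21 lie above the dashed line and 4 (Rps2, Rps12, Rps20 and Rpsa) below it.

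Rps26 (ENSMUSG00000025362), which sits at the mRNA exit channel and is mutated in Diamond-Blackfan anaemia, had footprints at 812 and 769.9 RPKM with PBS, 696 and 776 at 6 h and 1166 and 1402 at 21 h. Both 21 h libraries lay above the other 4, and footprints rose by 0.66 on the log2 scale, 1.58-fold (SE 0.10, limma adjusted p = 0.00146). Footprints of Rps29, a zinc-binding head protein, were 1367 and 1077 RPKM with PBS, 1213 and 1209.7 at 6 h and 1797 and 2192 at 21 h and rose by 0.67 on the log2 scale (SE 0.12, limma adjusted p = 0.00306), again with both 21 h libraries on top. In Rps13, a body protein that contacts the large subunit, footprints were 749 and 701 RPKM with PBS, 749 and 749 at 6 h and 998 and 1108 at 21 h and rose by 0.50 on the log2 scale (SE 0.08, limma adjusted p = 0.0016). Libraries at 21 h did not overlap the others in any of these 3 genes, and all 3 calls were kept under each of the 14 alternatives.

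Smaller footprint rises were called in Rps24, Rps23, Rps19 and Rps21. Rps24 and Rps19 are further Diamond-Blackfan genes. Rps24 footprints were 2795 and 2437 RPKM with PBS, 2573 and 2348 at 6 h and 3075 and 3829 at 21 h, a rise of 0.36 on the log2 scale (SE 0.11, limma adjusted p = 0.0362). Those of Rps23 were 265 and 267 RPKM with PBS, 229.5 and 258 at 6 h and 331 and 352 at 21 h, a rise of 0.32 on the log2 scale (SE 0.09, limma adjusted p = 0.0189). Rps19 rose by 0.29 and Rps21 by 0.27 on the log2 scale. The calls of Rps24, Rps19 and Rps21 were lost in 8, 9 and 8 of 14 alternatives, among them no filter on low RPKM, and that of Rps23 in 3.

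Footprints fell in 3 members. Rps12 had footprints at 647 and 774 RPKM with PBS, 515 and 612 at 6 h and 483 and 543 at 21 h, with all 4 treated libraries below PBS, and fell by 0.50 on the log2 scale (SE 0.12, limma adjusted p = 0.0122) at 21 h. Rpsa footprints were 955 and 1012 RPKM with PBS, 838 and 834 at 6 h and 789 and 797 at 21 h and fell by 0.35 on the log2 scale (SE 0.07, limma adjusted p = 0.00677), and those of Rps20, given above, fell by 0.34 on the log2 scale (SE 0.09, limma adjusted p = 0.0147). In each of the 3 genes the treated libraries of both times lay below both PBS libraries. Rps2 changed by -0.23 (SE 0.08, limma adjusted p = 0.0585), and voom called it lower as well. Without PBS library 2 or 21 h library 2 of the footprints, 5 members were called in all, and Rps12 was lost without PBS library 2 (or 21 h library 1) and Rps20 without either PBS library 2 or 21 h library 2.

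**Figure D3:**
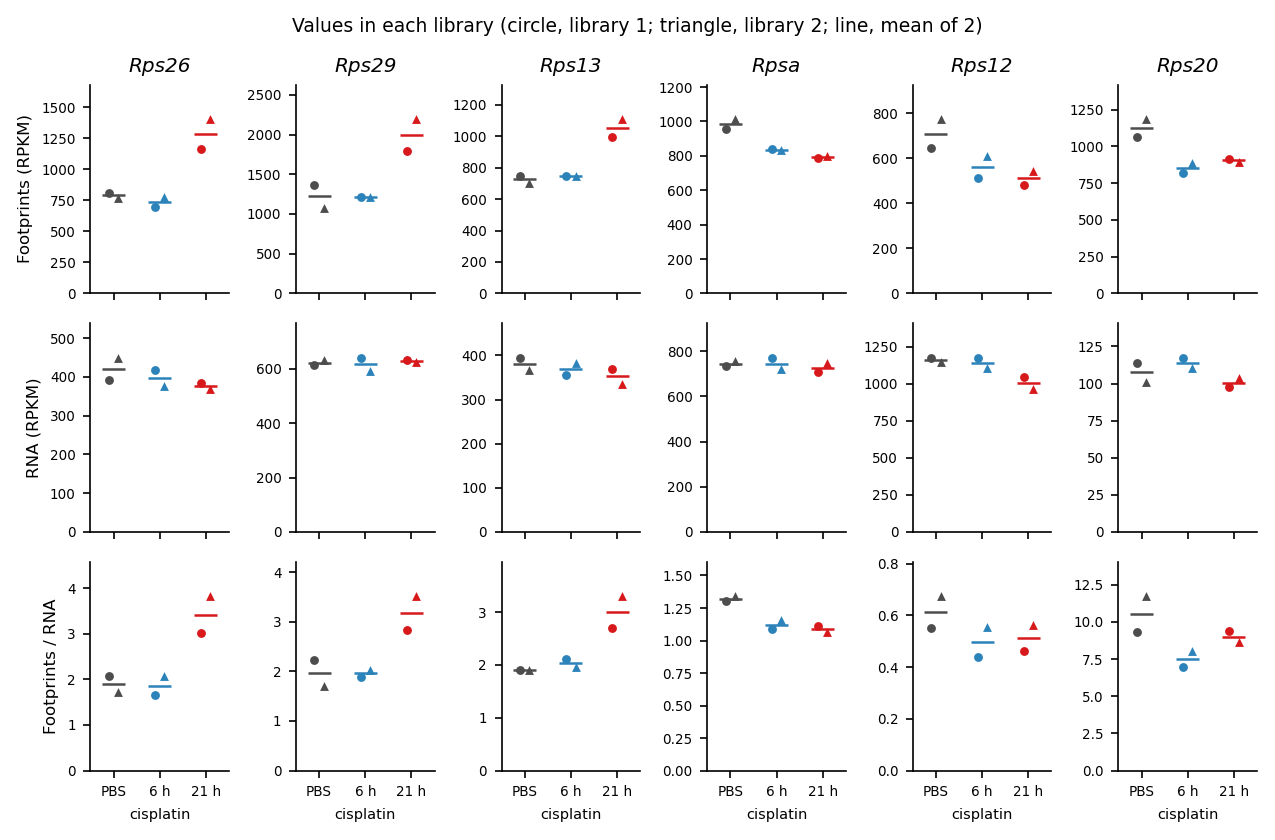
Footprint RPKM, RNA RPKM and footprints per RNA in each library (circle, library 1, triangle, library 2, line, mean of 2) for the 3 members with the largest and the 3 with the smallest TE change at 21 h. The 21 h points of Rps26, Rps29 and Rps13 stand above the others for footprints and the ratio and not for RNA, and treated points of Rpsa, Rps12 and Rps20 lie below PBS for footprints.

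Footprints per RNA were higher for most members at 21 h. The TE change was above 0 in 25 of 29 members, with a median of 0.38 against -0.04 over all transcripts tested. An unadjusted p under 0.05 was seen in 20 members and in 1183 of the 9295 transcripts. Past the adjusted threshold, 2 of 29 rose (6.90%), where 0.258% of 9295 transcripts were called higher. These were Rps26 and Rps13. Footprints per RNA of Rps26 were 2.07 and 1.72 with PBS, 1.66 and 2.07 at 6 h and 3.03 and 3.82 at 21 h, a TE rise of 0.90 on the log2 scale (SE 0.15, limma adjusted p = 0.036). For Rps13 they were 1.90 and 1.91 with PBS, 2.11 and 1.95 at 6 h and 2.70 and 3.29 at 21 h, a rise of 0.70 on the log2 scale (SE 0.13, limma adjusted p = 0.0408). In both genes each 21 h ratio, with libraries matched by number, exceeded every other. RNA of Rps26 was 392 and 449 RPKM with PBS, 419 and 375 at 6 h and 385 and 367 at 21 h, a 21 h change of -0.24 (SE 0.09, limma adjusted p = 0.075), and RNA of Rps13 was 394 and 367 RPKM with PBS, 355 and 384 at 6 h and 369.6 and 336 at 21 h, a change of -0.19 (SE 0.09, limma adjusted p = 0.138).

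Rps29 had a TE change between those of Rps26 and Rps13 that did not pass the threshold, 0.75 (SE 0.15, limma adjusted p = 0.064), with footprints per RNA of 2.22 and 1.70 with PBS, 1.89 and 2.04 at 6 h and 2.84 and 3.51 at 21 h. The remaining changes above 0 ranged from 0.12 (Rps6) to 0.58 (Rps19). At the other end stood Rpsa at -0.23 (SE 0.09, limma adjusted p = 0.343), Rps12 at -0.21 (SE 0.16, limma adjusted p = 0.63), Rps20 at -0.17 (SE 0.13, limma adjusted p = 0.639) and Rps2 at -0.13 (SE 0.11, limma adjusted p = 0.652). For Rpsa the ratios were 1.30 and 1.34 with PBS, 1.09 and 1.16 at 6 h and 1.11 and 1.07 at 21 h, so that all 4 treated libraries lay below PBS. The half-width of the 95% confidence interval, without adjustment, was 0.26 on the log2 scale at the median over members. Of 29 intervals 20 excluded 0, yet 2 members passed the adjusted threshold. With 2 libraries per group a change well beyond that size could therefore go uncalled, as that of Rps29 did. Across the 29 genes the TE change at 21 h and log2 coding length had a Pearson correlation of -0.36 (Spearman -0.25).

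The TE calls were the least firm. Rps26 lost its call in 13 and Rps13 in 14 of 20 alternatives, including both PBS libraries and 21 h library 2 of the footprints left out in turn (1, 1 and 0 members called), both 6 h libraries of the footprints (0 and 0), PBS libraries 1 and 2 or 21 h library 2 of the RNA-seq (0, 0 and 0) and 6 h library 1 of the RNA-seq (1). Without 21 h library 1 of the footprints 5 members were called, and voom called 11, all higher. The shares of all transcripts called under these alternatives are not given here, and the 0.258% of the main test does not apply to them. The median over members stayed above 0 throughout, at 0.21 with quantile normalization and 0.27 to 0.43 with a library left out.

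**Figure D4:**
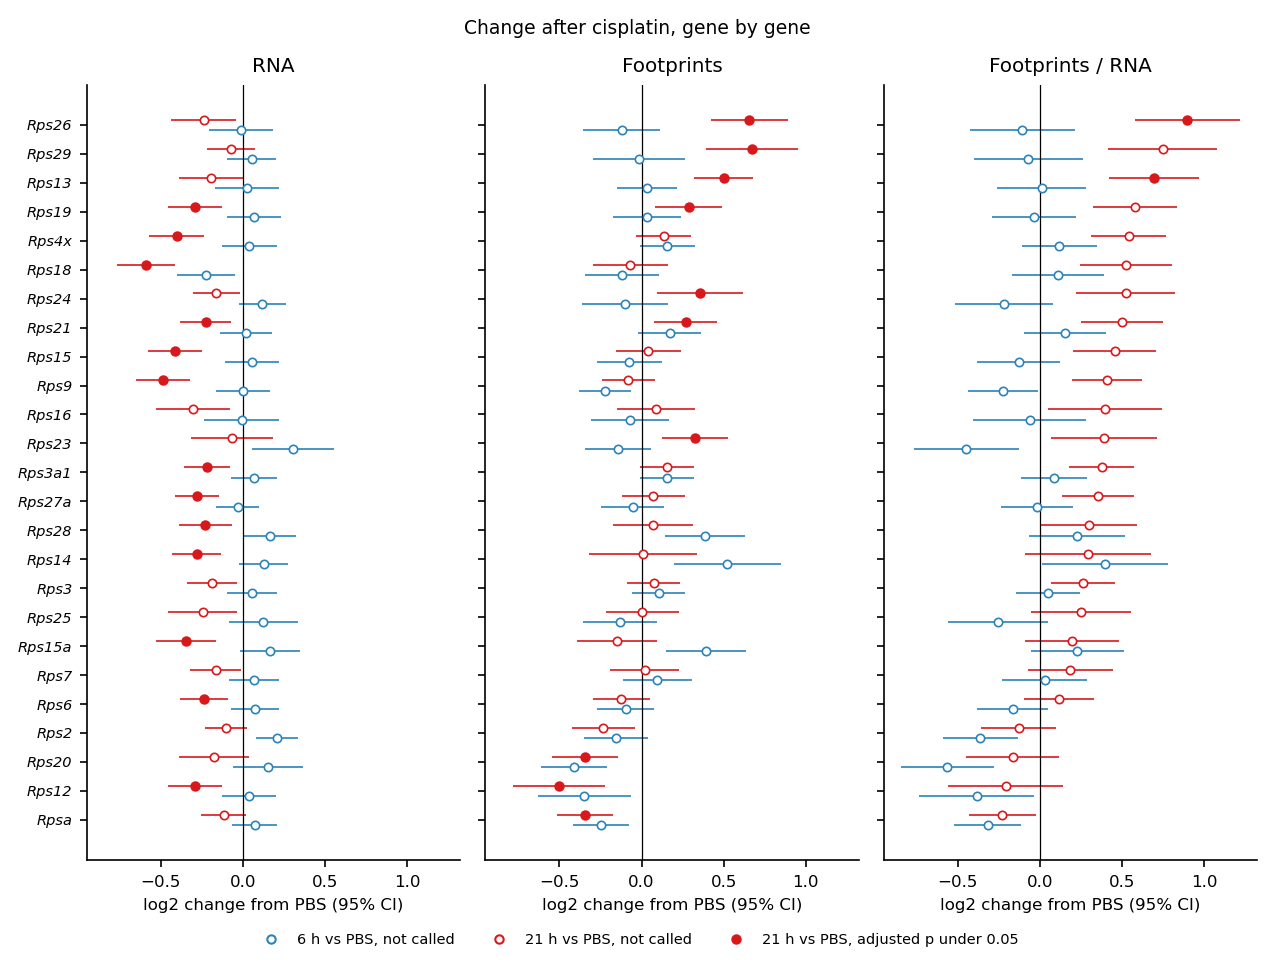
Log2 change from PBS with 95% confidence intervals at 6 h (blue) and 21 h (red) for RNA, footprints and their ratio in 25 genes, ordered by the TE change at 21 h, with filled points for an adjusted p under 0.05. Red RNA points all lie below 0, red ratio points lie above 0 in 21 of the 25 genes plotted, and no blue point is filled.

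The comparison of 21 h with 6 h tests whether the 2 times differ. PBS libraries do not enter the change itself but share in the estimate of its variance, and with either PBS library of the RNA-seq left out the RNA calls numbered 21. RNA fell in 24 of 30 members (80.0%) and rose in 0, where 8.21% of 9443 transcripts were called lower, with a median of -0.32 against 0.01 over all. All 30 members had both 21 h libraries below both 6 h libraries on scaled RPKM, which held for 28.4% of all transcripts tested. Rps15a and Rps9 were among those with the largest falls. Rps15a RNA was 128 and 124 RPKM with PBS, 135 and 134 at 6 h and 102 and 108 at 21 h and fell by 0.51 on the log2 scale (SE 0.08, limma adjusted p = 0.00382) between 6 and 21 h, and Rps9 fell by 0.49 on the log2 scale (SE 0.07, limma adjusted p = 0.00311). Quantile normalization left 6 lower, with 8 of 30 members above 0, and RPKM as deposited 9, the latter with a median of all transcripts of 0.15 and a median of the members of -0.17. Without 6 h library 1, 6 h library 2 or 21 h library 2 of the RNA-seq, 10, 14 and 12 were called. Without the trend of variance with level, 0 were called.

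Footprints between 6 and 21 h rose in 5 of 29 members, where 15% of transcripts were called higher, and fell in 3, where 15.7% were called lower. The risers, Rps26 (0.78 on the log2 scale), Rps29 (0.69), Rps13 (0.47), Rps23 (0.47) and Rps24 (0.46), had also risen from PBS. Of the 3 that fell, Rps15a fell by 0.54 on the log2 scale (SE 0.11, limma adjusted p = 0.00667) and Rps14 by 0.51 on the log2 scale (SE 0.14, limma adjusted p = 0.0274). Both lay near their PBS level at 21 h, and neither 6 h change from PBS was called. Leaving out 6 h library 1 or 2 of the footprints left 5 and 4 calls, and those of Rps14 and Rps15a were among the calls lost without library 2.

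TE rose between 6 and 21 h in 9 of 29 members (31%), where 0.592% of 9295 transcripts were called higher, with 27 above 0 and a median of 0.40 against -0.04 over all. Rps26 changed most, by 1.0 (SE 0.15, limma adjusted p = 0.0104), followed by Rps23 at 0.84 (SE 0.15, limma adjusted p = 0.0285) and Rps29 at 0.82 (SE 0.15, limma adjusted p = 0.0299). Rps23 ratios were 3.61 and 3.35 with PBS, 2.79 and 2.60 at 6 h and 4.60 and 4.23 at 21 h, lowest at 6 h and highest at 21 h. The others included Rps24 (0.74), Rps13 (0.69), Rps9 (0.63), Rps19 (0.61) and Rps15 (0.58), a head protein near the decoding centre. Ratios of Rps9 were 5.66 and 6.21 with PBS, 5.12 and 5.66 at 6 h and 7.79 and 7.43 at 21 h, with both 21 h libraries above the other 4. Without 6 h library 1 of the footprints 0 members were called, without 6 h library 2 or 21 h library 2 of the footprints 1 each, and without a single 6 h or 21 h RNA-seq library 3 or 4.

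Genes that share a pathway with the members were counted in the same tests. Of 42 large subunit genes, 19 fell in RNA at 21 h with all 42 below 0 (median -0.22), where 12.2% of all transcripts were called lower. Their median TE change was 0.33 with 4 called higher and 1 lower, where 0.258% and 0.151% of all transcripts were. Rack1, a scaffold on the 40S head, fell in RNA by 0.31 on the log2 scale, and Fau, which encodes the 40S protein eS30 and lies outside the symbol rule, rose in footprints by 0.47. Among 15 other mRNAs known for a TOP element, such as elongation factors, 7 fell in RNA at 21 h (median -0.32), beside the same 12.2%. Their median TE change was 0.30. The stalk proteins of the large subunit moved otherwise, with TE of Rplp0 and Rplp1 lower by 0.75 and 0.78 on the log2 scale (both called) and that of Rplp2 at 0.55 (not called). Factors that assemble the 40S subunit had RNA changes at 21 h with 10 of 44 called higher, 0 lower and a median of 0.23, where 11.6% of all transcripts were called higher. In footprints 17 rose and 5 fell, beside the 18.9 and 20.2% over all transcripts given above. Of 18 genes that regulate TOP mRNAs or phosphorylate Rps6, 1 rose and 5 fell in RNA at 21 h, beside 11.6 and 12.2% of all transcripts. Mlst8 rose, and Eif4e, Larp1, Rps6ka1, Rps6ka3 and Rptor fell. The fall of Larp1, the repressor of TOP mRNAs, was 0.62, and a link to the members was not tested. These counts are set beside those of the members and the sets were not compared by a test.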

How the data were processed

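Ribosome profiling and RNA-seq of KPC cells were analysed in 12 libraries, with groups taken from the sample titles and the dose from the study's methods. The authors deposited RPKM per library for 1 representative transcript per gene, over the coding length for footprints and the transcript length for RNA, with replicates not pooled and unlisted transcripts set to 0 here. Per the submitters' processing notes cutadapt, STAR and GRCm39 were used, and versions, read filters and the treatment of reads with several matches are not given in the sources used here. The protocol sent the lysate supernatant for RNA-seq, and 25 to 35 nucleotide fragments were cut from a gel after RNase I.

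Multiplied by length, 100% of the RPKM values were whole multiples of a single read (tolerance 0.01), which gave the reads and the depth. Reads carry no molecular identifiers, so read numbers cover counting error only. Within an assay, RPKM were divided by median-of-ratios factors, transcripts with a mean of at least 1 were kept (10383 for footprints, 9443 for RNA and 9295 for TE), and limma 3.58.1 (R 4.3.3) was run on log2(RPKM + 0.5) (eBayes with a trend, the 3 groups of an assay in a single model, two-sided, Benjamini-Hochberg adjustment over all transcripts). For TE the interaction between assay and group was tested in all 12 libraries. Means ± SD use RPKM as deposited, and ratios per library match footprint and RNA-seq libraries by replicate number. Simulated data with known changes were used to check the direction and median size of the estimates. Their noise was set alike for all transcripts and libraries, unlike that of the real replicates, so they do not show how firm the calls are. Files and sequences were read with Python 3.11.15 and pandas 2.3.3.

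Values per library are given for members called for TE, the 3 largest rises and falls called in each comparison, the 3 highest and lowest in each PBS level and the 3 largest and smallest TE changes at 21 h. Rps6 and the genes voom called at 6 h were named after their values were seen. Some members count in every total and are not reported here by name. The members, the gene lists and the tests were chosen with earlier results of these data known. The alternatives were a pseudocount of 1, no filter, no scaling, quantile normalization, no variance trend, voom on the recovered reads, only the groups compared, a replicate block and each library left out.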

Additional observations from a re-analysis of the deposited data

Results flagged for a closer look

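The changes from PBS at 6 h and at 21 h differed for some members, as tested directly by 21 h against 6 h (limma, adjusted p under 0.05). This held for 8 of 29 members in footprints, where 30.7% of all transcripts were called, for 24 of 30 in RNA, where 15.7% were called, and for 9 of 29 in TE, where 1.01% were called. The footprint count is near that background and is no result about the members. In RNA all 24 were lower at 21 h, and in TE all 9 were higher. Footprints were higher at 21 h in 5 (Rps26, Rps29, Rps13, Rps23 and Rps24) and lower in 3, among them Rps15a and Rps14. Groups of 2 libraries are too small for a test of single outlying libraries.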

How the results depend on the processing

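Counts are of members called against 10, 18 and 2 (footprints, RNA and TE at 21 h against PBS) and 8, 24 and 9 (21 h against 6 h) as reported, and the cause of a change was not tested. The share of all transcripts called under each alternative is not given here, apart from that of voom for footprints at 6 h. Without the trend of variance with level, these were 3, 1 and 0, and 5, 0 and 0. Without the filter on low RPKM, RNA gave 9 and 12 and TE 0 and 4. RPKM as deposited gave 10 and 9 for RNA. Quantile normalization gave 6 and 6 for RNA and 0 and 3 for TE, and turned 4 RNA calls of 21 h against 6 h above 0 on the log2 scale: Rps21 (0.024), Rps24 (0.022), Rps27a (0.0053) and Rps7 (0.057). With voom, TE gave 11 and 14, and at 6 h against PBS, where 0 members were called, footprints gave 8 and RNA and TE 1 each. With only the groups compared, TE gave 0 and 4, and footprints at 6 h gave 1, as they did with a pseudocount of 1 and with quantile normalization.

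With each library left out in turn, footprints gave 5 to 10 at 21 h and 4 to 9 for 21 h against 6 h, RNA 7 to 18 and 10 to 21, and TE 0 to 5 and 0 to 9. Deviations of libraries with the same replicate number were not correlated (-0.03 to 0.03), which does not show whether they came from the same lysate. With the number as a replicate block, TE gave 0 and 0 calls, RNA 17 and 25, and footprints 7 and 9. Of 71 calls of single genes, all kept their direction and side of the threshold with a pseudocount of 1, 70 with voom, 57 with only the groups compared and 9 without the trend.

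Without Lars2, Mettl26 and Tmem38b in the total, the mean share of RNA reads on the members was 3.39% with PBS, 3.62% at 6 h and 2.95% at 21 h, against 1.56, 1.57 and 1.39% of all reads. The spread of levels over the members was 1.19 in PBS library 2 of the footprints alone, and 1.15 and 1.12 in the 21 h RNA-seq libraries 1 and 2 alone. In the RNA-seq, 51.8 to 56.6% of the reads lay on 3 transcripts, which lowers the depth left for the members.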
